A study of Mus musculus with 8 samples.

Results

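The genes described here are the nuclear protein-coding genes of the mouse mitochondrial ribosome and of the respiratory chain. They were taken by symbol: every gene named Mrpl or Mrps with a number, Nduf, Sdha to Sdhd, Uqcr, Cox4 to Cox8 or Atp5. The rule gave 178 of the 21887 nuclear protein-coding genes listed by RefSeq on GRCm38.p6, of which mm10 is the browser build. They comprise 49 genes of the large and 29 of the small mitochondrial ribosome subunit, 41 of complex I with 8 of its assembly factors, 4 of complex II with 4 of its assembly factors, 8 of complex III, 18 of complex IV and 17 of complex V. The prefixes also take 3 genes now known for a place in another complex, Ndufa4 and Ndufa4l2 in complex IV and Mrps36 in the oxoglutarate dehydrogenase complex. Each is counted under its prefix.

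The 4 groups were mouse embryonic stem cells labelled C57BL/6, kept in LIF plus CHIR99021 and PD0325901 (blockers of GSK3 and MEK), with 2 CUT&RUN libraries per group. CUT&RUN tethers a nuclease to an antibody-bound protein on chromatin and sequences the fragments that it releases. METTL14 was profiled in Mettl3 CKO and Mettl3 control cells, and METTL3 in Mettl14 CKO and Mettl14 control cells, which addresses how far each protein's sites depend on its partner. METTL3 and METTL14 together form the writer of N6-methyladenosine on RNA. The labels do not spell out CKO, say how the lines were made or give the libraries of a group separate cultures, so p-values measure the spread between these libraries, which may be technical. Antibody and line changed together. Peak lists hold no expression, so the labelled cell type and genotypes could not be checked from them.

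Mitochondria make a few core proteins of the respiratory chain from their own DNA, on their own ribosomes. All proteins of those ribosomes, and most subunits of complexes I to V, are encoded in the nucleus and imported. Complexes I to IV pass electrons to oxygen and complex V uses the resulting proton gradient to make ATP. Many of these nuclear genes are housekeeping genes with CpG-rich promoters, and sites for the factors NRF1, GABPA (an ETS factor) and YY1 are known in a number of them.

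The deposited METTL14 lists held 3922 and 1439 peaks in Mettl3 CKO replicates 1 and 2, and 3129 and 3546 peaks in Mettl3 control replicates 1 and 2. The METTL3 lists held 242 and 344 peaks in Mettl14 CKO cells and 353 and 341 in Mettl14 control cells. Every peak has the same score, 1, so a list says where signal passed the authors' threshold and not how high it was. The read depth behind the lists is unknown. No library with a nonspecific antibody was analysed here. Mettl3 CKO replicate 2 stands apart by its short list.

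METTL14 peaks lay at a minority of these genes in every library. A gene was called where a peak overlapped it, or the 2 kb on either side of it, by at least 1 bp. In Mettl3 CKO cells 28 of 178 members (15.7%) were called in replicate 1, beside 12.8% of all nuclear protein-coding genes, and 9 (5.06%) in replicate 2, beside 4.87%. In Mettl3 control cells 21 members (11.8%) were called in replicate 1, beside 9.67% of all genes, and 26 (14.6%) in replicate 2, beside 11.2%. The members' share was close to that of all genes and a little above it in each of the 4 libraries. Of the 178 members 46 (25.8%) were called in at least 1 METTL14 library, beside 20.7% of all genes, and 132 in none. Of the 46 genes 24 were called in 1 library, 9 in 2, 10 in 3 and 3 in 4. As shares of members these were 13.5%, 5.06%, 5.62% and 1.69%, beside 10.8%, 4.59%, 2.85% and 2.51% of all genes. At least 1 CKO library called 30 members, beside 13.8% of all genes, and at least 1 control library 33, beside 15.5%. The peaks merged into 55 regions, and 8 members held more than 1. The members are short genes, with a median length of 7502.5 bp against 17169 bp for all genes, so their windows are also shorter.

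**Figure D1:**
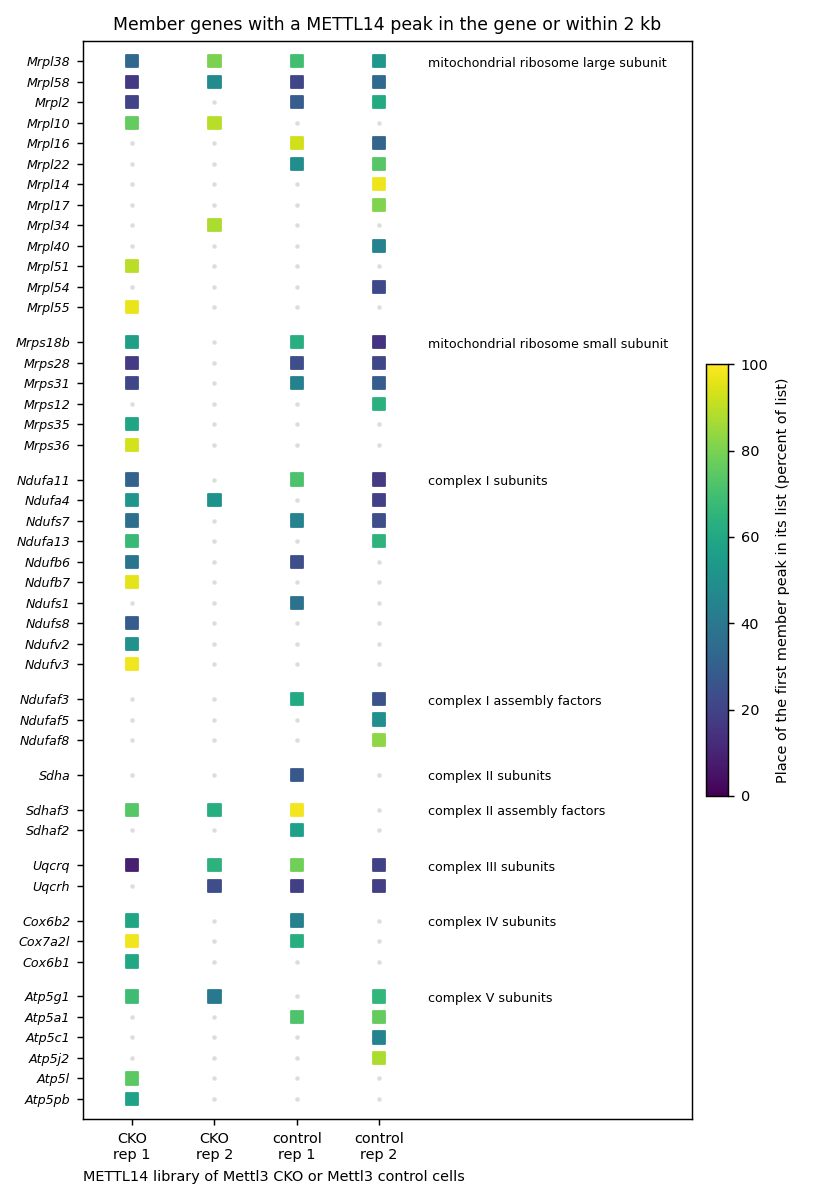
The 46 members with a METTL14 peak, one row a gene by complex, and the 4 METTL14 libraries in columns with Mettl3 CKO left of Mettl3 control. A square marks a peak in the gene or within 2 kb, coloured by the place of its earliest peak in that library's list as a percent of the list, and a grey dot marks no peak. In 24 rows there is a single square, and 3 rows (Mrpl38, Mrpl58, Uqcrq) hold 4.

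The number of members called did not separate Mettl3 CKO from Mettl3 control cells. It averaged 18.5 ± 13.4 in CKO and 23.5 ± 3.54 in control libraries (SD, n = 2 each), a difference of -5 (two-sided exact permutation p = 1). The design cannot give a p below 0.333. The CKO range, 9 to 28, encloses both control values. The sign rested on the short list: the difference was 4.5 with CKO replicate 2 left out and -14.5 with CKO replicate 1 left out. As a share of all nuclear protein-coding genes called in the same library, members made up 0.996% and 0.844% in CKO libraries and 0.992% and 1.06% in control libraries. The difference of the means was -0.108 percentage points (exact permutation p = 0.667). It was -0.0322 with CKO replicate 2 left out and -0.184 with CKO replicate 1 left out.

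The number of members called rose along each list, as the plot of members against list length shows. The lists run in an order whose basis is not given in the sources used here. Cut to their leading 1439 peaks, the 4 METTL14 lists called 9 and 9 members in CKO libraries, beside 4.59% and 4.87% of all genes, and 10 and 12 in control libraries, beside 4.36% and 4.31%. The difference was then -2, with both control values above both CKO values (exact permutation p = 0.333, the smallest possible). The median member peak stood at 59.1% and 62.5% of the list in CKO libraries and at 48.8% and 40% in control libraries. The earliest member peak stood at place 338 in CKO replicate 1 (Uqcrq), 342 in CKO replicate 2 (Uqcrh), 583 in control replicate 1 (Uqcrh) and 523 in control replicate 2 (Mrps18b).

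**Figure D2:**
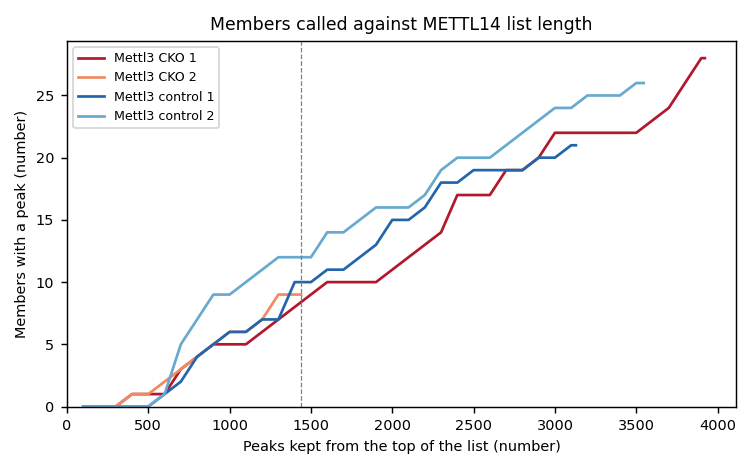
Number of members with a METTL14 peak (vertical axis) when a list is cut to its leading peaks (horizontal axis), one line a library, with a dashed line at the 1439 peaks of the shortest list. No line leaves 0 within the leading 300 peaks. Cut to the 1439 peaks at the dashed line, the lists called 9 to 12 members.

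**Figure D3:**
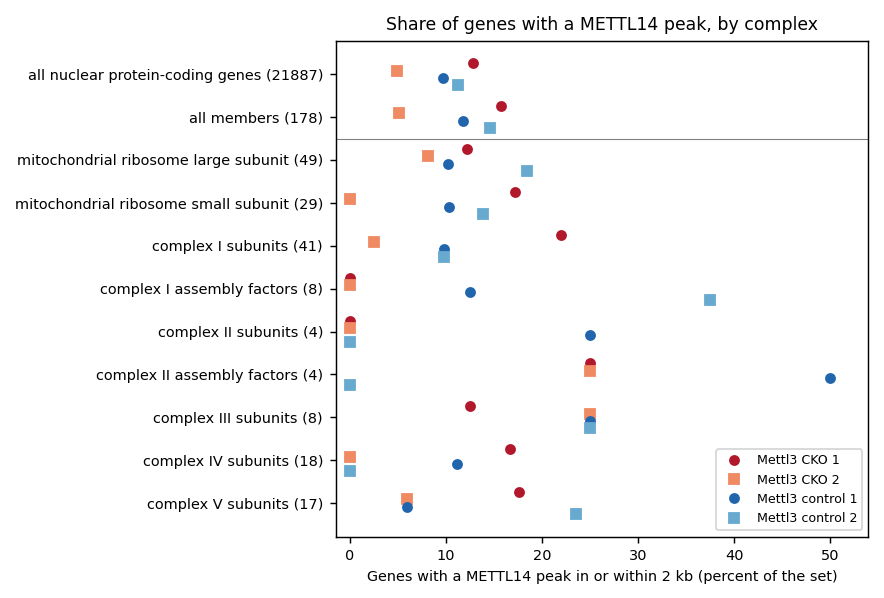
Percent of genes with a METTL14 peak in or within 2 kb, by complex, with the number of genes in parentheses and all nuclear protein-coding genes and all members above the line. Red points are the Mettl3 CKO libraries and blue points the Mettl3 control libraries. The CKO replicate 2 points lie at 0 for 4 of the 9 gene groups, and groups of 4 or 8 genes move by large steps.

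Of the 7 members called in both CKO libraries (3.93%, beside 3.87% of all genes) and the 14 called in both control libraries (7.87%, beside 5.35%), 3 were the same, which makes 1.69% of members called in all 4 libraries, beside 2.51% of all genes. The 3 shared genes are 42.9% of the CKO set and 21.4% of the control set. Over all genes 549 were called in all 4 libraries, out of 847 called in both CKO and 1171 in both control libraries. Among the 14 control genes 10 were also called in a CKO library, and among the 7 CKO genes 6 were also called in a control library. Over all genes, 195 of the 1171 had no peak in a CKO library and 101 of the 847 had none in a control library. The difference in overlap between members and all genes was not tested. At least 3 of the 4 libraries called 13 members (7.3%), beside 5.36% of all genes. The 3 genes called throughout were Mrpl38 and Mrpl58 of the large ribosome subunit and Uqcrq of complex III.

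Mrpl38 encodes a protein of the large mitochondrial subunit. Its peaks overlapped each other in all 4 libraries, over chr11:116138784-116138988, at the boundary of the gene with the higher coordinate (the gene spans 116131817 to 116138868). Mrpl58 encodes a peptidyl-tRNA hydrolase that is built into the large subunit. Its peaks also overlapped in all 4 libraries, over chr11:115413074-115413299, and CKO replicate 1 had a further peak at 115413477 to 115413625. These peaks lay past the end of the gene (115403724 to 115412674), with centres 9396 to 9799 bp from its start. The same peaks lay 2066 to 2469 bp from Atp5h, a complex V stalk gene, which therefore fell just outside the 2 kb window. Past the ends of the genes, peaks of members reached at most 803 bp from the gene, at Mrpl58.

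Uqcrq encodes a small subunit of complex III. In all 4 libraries its peaks overlapped each other within chr11:53430952-53431181, beyond the boundary of the gene with the higher coordinate (53427922 to 53430831). Control replicate 2 had another peak at 53430650 to 53430798, inside the gene. Its peak was the earliest member peak in CKO replicate 1, at 8.62% of the list, and stood at 64.4% in CKO replicate 2 and at 78.2% and 19.3% in the control libraries. The coding gene Gdf9, an oocyte growth factor, also lay within 2 kb of every one of these peaks.

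Of the 46 called members 17 were called in both genotypes, 13 in CKO libraries only and 16 in control libraries only, most of these in a single library. At least 1 CKO library called 30 of the 46, and at least 1 control library 33. Of the 4536 genes called over all nuclear protein-coding genes these were 3030 and 3388, so the split is not particular to members. Few were called in both libraries of a genotype and in neither of the other. Mrpl10 (large subunit) was called in both CKO libraries and neither control library, 0.562% of members beside 0.461% of all genes. Its peaks at chr11:97041388-97041549 had centres at -107 and -120 bp from its start, where negative is upstream, and stood late, at 75.8% and 89.2% of their lists. The coding gene Lrrc46 also lay within 2 kb of both. Mrpl16, Mrpl22, Ndufaf3 and Atp5a1 were called in both control libraries and neither CKO library, 2.25% of members beside 0.891% of all genes. Mrpl16 peaks at chr19:11770420-11770571 had centres 79 and 82 bp downstream of the start. Ndufaf3, an assembly factor of complex I, carried peaks at chr9:108567104-108567343, inside the gene, with centres 167 and 258 bp downstream of the start. Dalrd3 and Impdh2 also lay within 2 kb of the Ndufaf3 peaks. Atp5a1, the alpha subunit in the catalytic head of complex V, had peaks at chr18:77773751-77773909, across the boundary with the lower coordinate and within 2 kb of Haus1. At Mrpl22 the peaks of the control libraries did not overlap: in replicate 1 the centre was 155 bp downstream of the start, and in replicate 2 it was 7954 bp downstream, at the gene's end. The short list of CKO replicate 2 enters each of these 5 calls. With that library left out, Mrpl10 had a peak in CKO replicate 1 and in no control library, and the other 4 genes had none in CKO replicate 1.

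In the mitochondrial ribosome 19 of 78 genes were called in at least 1 METTL14 library (24.4%), near the 20.7% of all genes. In CKO cells 11 (14.1%) were called in replicate 1 and 4 (5.13%) in replicate 2, beside 12.8% and 4.87% of all genes. In control cells 8 (10.3%) and 13 (16.7%) were called, beside 9.67% and 11.2%. The 4 in CKO replicate 2 were all of the large subunit (Mrpl10, Mrpl34, Mrpl38 and Mrpl58), and none of the 29 small subunit genes was called there. Mrpl2, a conserved large subunit protein, and the small subunit genes Mrps18b, Mrps28 and Mrps31 were called in CKO replicate 1 and both control libraries. At Mrps18b the 3 peaks nearly coincided, over chr17:35916553-35916702, with centres at -187 and -188 bp from the start. At Mrps28 they overlapped within chr3:8923602-8923751, inside the gene, with centres 180 to 181 bp from its boundary with the higher coordinate. At Mrps31 they overlapped within chr8:22427137-22427299, far inside the gene, with centres 15871 to 15885 bp from its start. At Mrpl2 the peak of control replicate 1 lay apart, at -313 bp from the nearest start, while those of CKO replicate 1 and control replicate 2 lay at 49 and 51 bp.

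Complex I had peaks at 10 of its 41 subunit genes (24.4%) and 3 of its 8 assembly factors in at least 1 METTL14 library, again beside 20.7% of all genes. Subunit genes numbered 9 (22%) in CKO replicate 1 and 1 (2.44%) in CKO replicate 2, beside 12.8% and 4.87% of all genes. They numbered 4 (9.76%) in each control library, beside 9.67% and 11.2% of all genes. Ndufs7, an iron-sulfur subunit close to the quinone site, was called in CKO replicate 1 and both control libraries over chr10:80249153-80249369. The centres lay at -154 to -222 bp from the start in the promoter table, but inside the listed span of the gene (80249105 to 80256794). Each of these 3 peaks also overlapped an annotated tRNA gene, n-TNgtt7. Ndufa11, an accessory subunit of the membrane arm, was called in the same libraries. Their peaks overlapped within chr17:56717109-56717271, with centres at -565 to -579 bp. The same centres lay nearer to the start of the coding gene Vmac, at -262 to -276 bp. Ndufa11 also had a peak at 136 bp in CKO replicate 1 and at -171 bp in control replicate 2. The centres of these further peaks lay at -199 and 108 bp from the Vmac start. Ndufa4 was called in both CKO libraries and control replicate 2, over chr6:11907523-11907711, with centres at -147 to -187 bp. Of the 8 assembly factors of complex I, Ndufaf3, Ndufaf5 and Ndufaf8 (37.5%) were called in at least 1 control library, beside 15.5% of all genes. Ndufaf5 and Ndufaf8 were called in control replicate 2 alone. At least 1 CKO library called 0 of the 8, beside 13.8% of all genes. The set is small and the difference was not tested.

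In complex II only Sdha, the flavoprotein subunit, was called among the 4 subunit genes, in control replicate 1. Sdhaf3, an assembly factor for the iron-sulfur subunit, was called in both CKO libraries at chr6:6956042-6956193 and in control replicate 1 at 6955761 to 6955909, on the other side of its start. Complex III had peaks at 2 of 8 genes, Uqcrq and Uqcrh. Uqcrh, the hinge protein of complex III, was called in CKO replicate 2 and both control libraries over chr4:116075147-116075326. It stood early in each list, at 23.8% in CKO replicate 2 and at 18.6% and 18.7% in control replicates 1 and 2. Complex IV had peaks at 3 of 18 genes (Cox6b1, Cox6b2 and Cox7a2l), none of them called in both libraries of a group. Of all genes 3.87% were called in both CKO and 5.35% in both control libraries. Complex V had peaks at 6 of 17 genes. At least 1 METTL14 library thus called 25% of complex II subunit genes, 25% of complex III, 16.7% of complex IV and 35.3% of complex V. These stand beside 20.7% of all genes. The groups are small and the differences between complexes were not tested. Atp5g1, which encodes the c subunit of the membrane ring, was called in both CKO libraries and control replicate 2 over chr11:96075694-96076016, with centres at -311 and -285 bp from its start in CKO replicates 1 and 2 and at -137 bp in control replicate 2. The control peak did not overlap that of CKO replicate 1, which had a second peak at -898 bp.

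METTL14 peaks at members gathered at gene starts. The RefSeq promoter table gave a start and strand for 151 of the 178 members and 39 of the 46 called in METTL14 libraries. Atp5a1, Mrpl38, Mrpl54, Mrps28, Mrps35, Ndufs1 and Uqcrq were not matched. In CKO libraries 70.4% of 27 and 85.7% of 7 member peaks had their centre within 500 bp of the member's own start, and in control libraries 75% of 16 and 72.7% of 22. Over all nuclear protein-coding genes with a start these shares were 59% and 61.5% in CKO libraries and 50.1% and 55.3% in control libraries. Members are shorter than most genes, which leaves less room for a peak away from the start, and the difference was not tested. Of the 39 genes 33 had such a peak, with 30 peaks upstream and 23 downstream of the start. The 6 others were Atp5j2, Mrpl51, Mrpl58, Mrps31, Ndufa13 and Ndufb6.

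**Figure D4:**
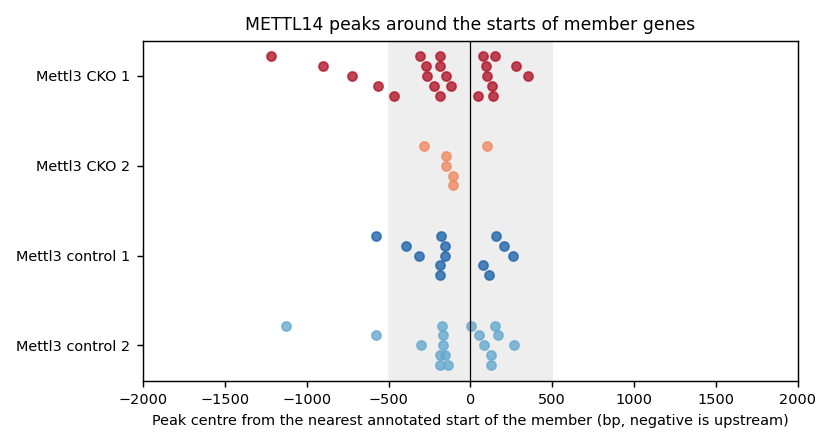
Distance from the nearest annotated start of the member to the peak centre in bp, negative upstream, for the 60 peaks within 2 kb of a start, one row a METTL14 library and Mettl3 CKO above Mettl3 control. The grey band marks 500 bp on either side, and most points of each row lie inside it. The height of a point within its row has no meaning, and 12 further peaks lay more than 2 kb from the start.

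Many of these starts are shared ground. Another protein-coding gene lay within 2 kb for 65.2% of members, against 37.2% of all nuclear protein-coding genes. Of the 89 member peaks in METTL14 lists 49 had another coding gene within 2 kb, and 27 of the 46 called members had another coding gene within 2 kb of every peak. Where both starts were known, in 38 peaks, 16 lay nearer to the start of the other gene. The Uqcrh peaks were such a case, with centres at -17 to -48 bp from the start of Lrrc41 and at -151 to -182 bp from that of Uqcrh. The Ndufb6 peaks, called in CKO replicate 1 and control replicate 1, were 58 and 122 bp downstream of the start of Topors and 9638 and 9702 bp from that of Ndufb6. The Ndufa4 peaks lay between Ndufa4 and Phf14, at -192 to -232 bp from the Phf14 start. A call at such a gene does not say which of the neighbours the protein was at.

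The promoters that follow were picked because the peaks of separate libraries coincided there. They belong to 4 members called in 3 METTL14 libraries and to the genes called in both libraries of 1 genotype and neither of the other whose promoter window carried a peak (Mrpl10 in CKO cells and Mrpl16 in control cells). At Atp5g1, Sdhaf3 and Mrpl2 the peaks of 3 libraries also reached a promoter window but shared 0 bases in it, and those windows are not printed. Each is the RefSeq window of GRCm38.p6 from 250 bases before to 50 after the start, on the gene's strand and 5′ to 3′. Capitals mark the bases covered by a peak of every METTL14 library that reached the window. The windows are chr17:35916391-35916690 (minus strand) for Mrps18b, chr6:11907401-11907700 (minus) for Ndufa4, chr10:80249199-80249498 (plus) for Ndufs7, chr4:116075021-116075320 (minus) for Uqcrh, chr11:97041332-97041631 (plus) for Mrpl10 and chr19:11770165-11770464 (plus) for Mrpl16.
Mrps18b: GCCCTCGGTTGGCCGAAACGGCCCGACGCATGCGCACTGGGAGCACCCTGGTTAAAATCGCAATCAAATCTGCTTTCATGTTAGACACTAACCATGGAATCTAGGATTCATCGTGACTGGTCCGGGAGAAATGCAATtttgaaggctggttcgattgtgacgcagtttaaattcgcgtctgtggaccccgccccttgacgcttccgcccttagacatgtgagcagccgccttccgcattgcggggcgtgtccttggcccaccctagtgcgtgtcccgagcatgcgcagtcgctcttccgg
Ndufa4: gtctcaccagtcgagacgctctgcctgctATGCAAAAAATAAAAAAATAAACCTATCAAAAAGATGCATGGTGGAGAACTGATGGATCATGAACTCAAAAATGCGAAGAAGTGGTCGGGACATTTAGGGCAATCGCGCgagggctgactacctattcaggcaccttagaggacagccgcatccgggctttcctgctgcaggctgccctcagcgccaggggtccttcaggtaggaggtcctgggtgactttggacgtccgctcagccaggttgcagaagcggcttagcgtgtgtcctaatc
Ndufs7: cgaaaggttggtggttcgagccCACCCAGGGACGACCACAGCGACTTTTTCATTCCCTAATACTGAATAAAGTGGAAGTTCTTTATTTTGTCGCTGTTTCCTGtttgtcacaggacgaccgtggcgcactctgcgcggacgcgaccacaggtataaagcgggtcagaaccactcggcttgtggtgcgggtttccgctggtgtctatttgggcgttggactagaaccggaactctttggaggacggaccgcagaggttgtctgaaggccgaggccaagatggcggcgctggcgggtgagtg
Uqcrh: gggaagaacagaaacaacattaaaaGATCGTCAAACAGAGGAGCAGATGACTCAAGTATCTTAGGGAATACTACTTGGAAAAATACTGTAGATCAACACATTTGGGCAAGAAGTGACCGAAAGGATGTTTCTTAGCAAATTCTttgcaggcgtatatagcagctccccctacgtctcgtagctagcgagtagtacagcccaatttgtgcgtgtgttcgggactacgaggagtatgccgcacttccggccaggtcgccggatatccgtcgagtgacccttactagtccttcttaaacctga
Mrpl10: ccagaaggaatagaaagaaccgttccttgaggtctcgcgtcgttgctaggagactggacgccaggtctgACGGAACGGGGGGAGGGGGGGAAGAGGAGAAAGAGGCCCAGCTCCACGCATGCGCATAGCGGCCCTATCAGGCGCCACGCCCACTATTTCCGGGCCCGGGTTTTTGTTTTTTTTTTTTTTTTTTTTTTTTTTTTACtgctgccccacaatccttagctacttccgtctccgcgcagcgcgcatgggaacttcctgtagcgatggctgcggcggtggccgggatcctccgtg
Mrpl16: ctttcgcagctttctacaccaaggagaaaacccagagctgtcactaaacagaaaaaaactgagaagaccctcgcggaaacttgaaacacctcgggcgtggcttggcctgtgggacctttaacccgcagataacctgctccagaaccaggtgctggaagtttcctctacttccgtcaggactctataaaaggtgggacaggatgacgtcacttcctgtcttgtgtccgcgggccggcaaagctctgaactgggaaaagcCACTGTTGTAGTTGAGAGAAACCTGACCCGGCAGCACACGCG
The shared bases ran from -250 to -114 at Mrps18b, from -221 to -113 at Ndufa4, from -228 to -148 at Ndufs7, from -225 to -108 at Uqcrh and from -181 to -46 at Mrpl10, and from 9 to 50 past the start at Mrpl16.

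Textbook motifs of respiratory gene promoters were counted on both strands of the same windows. The NRF1 motif stood in 22.5% of the 151 member promoters and 7.17% of all 17492 protein-coding promoters, CCGGAAG (ETS) in 31.8% and 12.9%, the YY1 motif in 6.62% and 1.06%, GGGCGG (SP1) in 48.3% and 49.2% and TGACGTCA (CRE) in 3.97% and 2.54%. Among the 39 members called in at least 1 METTL14 library NRF1 letters stood in 17.9%, against 24.1% of the 112 members with no peak, and ETS letters in 41% against 28.6%. These are counts of 7 and 16 genes among those called and were not tested. The median promoter held 19 CpG in called members and 20.5 in uncalled members, against 15 over all protein-coding genes, with a median GC content of 57.7% and 59% against 57.3%. Of the printed windows, Mrps18b held ETS letters from 44 past the start and SP1 letters from -63 and -47, Ndufs7 YY1 letters from 25, Uqcrh ETS letters from -10 and Mrpl16 CRE letters from -49, none of them overlapping each other or the bases in capitals. Ndufa4 and Mrpl10 held none of the 5 motifs.

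No METTL3 peak lay in a member or within 2 kb of one, in either Mettl14 CKO library or either Mettl14 control library. At least 1 METTL3 library called 0 of 178 members, beside 1.48% of all genes. Over all nuclear protein-coding genes 0.352% and 0.557% were called in CKO libraries and 0.608% and 0.525% in control libraries. The member count was therefore 0 in each group, and no difference between CKO and control could be measured (difference 0, exact permutation p = 1). The nearest METTL3 peak to any member was 3494 bp from Atp5d, a gene of the complex V central stalk, in Mettl14 CKO replicate 1. In control lines METTL14 called 23.5 members on average and METTL3 none (exact permutation p = 0.333, the smallest possible). The METTL3 lists were far shorter. With all 8 lists cut to the 242 peaks of the shortest, METTL14 also called 0 members in each library. All genes then stood at 0.32% and 0.352% in METTL14 CKO libraries and at 0.265% and 0.297% in METTL14 control libraries. For METTL3 they stood at 0.352% and 0.375% in CKO libraries and at 0.302% and 0.32% in control libraries. Shares this low leave little room for any of the 178 members to be called, and the basis of the list order is not given. Neither the absence from METTL3 lists nor the cut can therefore show whether the antibodies differ at members.

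Mitochondrial DNA, which encodes the partner subunits of these complexes, carried peaks with both antibodies and is given apart. Without a nonspecific antibody library these peaks do not show that either protein was at mitochondrial DNA, which was not tested. METTL14 lists had 5 and 9 peaks there in Mettl3 CKO libraries and 6 and 5 in Mettl3 control libraries. METTL3 lists had 4 and 5 in Mettl14 CKO libraries and 3 and 4 in Mettl14 control libraries. They stood early, at places 14 to 42 of the METTL14 lists and 4 to 22 of the METTL3 lists. The stretch 15467 to 15763 of chrM, outside the annotated genes, was called in all 8 libraries, and 16055 to 16221, also outside them, in all 4 METTL14 libraries and no METTL3 library. Within genes, 15 to 281 (TrnF and the small ribosomal RNA gene mt-Rnr1) was called in 6 libraries. Among coding genes, ND1, ND2, ND4 and ND5 of complex I and COX1 of complex IV held peaks. ND1 held a peak in both METTL14 CKO libraries and control replicate 2, and in both METTL3 CKO libraries and control replicate 1. The METTL14 control replicate 2 peak, at 2719 to 2867, also covered part of TrnL1 and overlapped no peak of another library. ND4 peaks at 11131 to 11306 were in both METTL14 CKO libraries, while control replicate 1 had its ND4 peak next to it, at 10970 to 11118.

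Other mitochondrial genes, were taken as a list outside the symbol rule. Of 67 genes 16 (23.9%) had a METTL14 peak in at least 1 library, beside 20.7% of all genes. In both CKO libraries 1 (1.49%) was called, beside 3.87% of all genes, and in both control libraries 4 (5.97%), beside 5.35%. The 1 called in all 4 libraries was Mtrf1l, a mitochondrial translation release factor. Those called in both control libraries also included Esrra, a nuclear receptor that regulates respiratory genes, and Ogdh of the tricarboxylic acid cycle. Cytochrome c, Cyc1 and assembly factors of complexes III to V made up 22 of the listed genes, and mitochondrial DNA upkeep and transcription 10. No gene of these sets was called in both libraries of a group. In this list 1 gene, Dlst of the tricarboxylic acid cycle, had a METTL3 peak, in Mettl14 CKO replicate 2. The cytosolic ribosomal protein genes, also short housekeeping genes of a ribosome, were called more often: 40.9% of 88 had a METTL14 peak in at least 1 library, 6 (6.82%) in both CKO libraries and 8 (9.09%) in both control libraries. This difference from the members was not tested.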

How the data were processed

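Peak lists of 8 CUT&RUN libraries were analysed. Per the submitters' processing notes, CASAVA, Trimmomatic 0.38, Bowtie2 2.4.1, SAMtools and HOMER were used, with no role or order given, and the build was mm10. The peak threshold, any background library and the depth are not stated by the labels. The deposited score is 1 for every peak, and each library has its own list.

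Genes, starts and promoter sequences came from RefSeq tables for GRCm38.p6. Peaks were overlapped with gene windows in Python 3.11.15 (pandas 2.3.3, numpy 2.4.6). The window step was tested on simulated peaks of known place. Group means were compared by two-sided exact permutation of the library labels. No gene list test was run. Each count of members is read against the share of all nuclear protein-coding genes called by the same rule. Genes were named where called in both libraries of a group or in at least 3 of the 4 METTL14 libraries; further genes are named to account for small counts and were chosen after their values were seen. Alternatives covered other windows, overlaps, list lengths and member sets, the regions called in all 8 libraries, each library left out and the replicate number as a block. The members and lists were chosen with earlier results of these data known. Positions are 1-based.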

Additional observations from a re-analysis of the deposited data

How the results depend on the processing

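No exact permutation p fell below 0.333 under any alternative, the smallest that 2 against 2 libraries allow. The METTL14 difference in members called between CKO and control ranged from -14.5 to 4.5 with 1 library left out, and turned positive (4.5) only without Mettl3 CKO replicate 2. The difference in share (-0.108) ranged from -0.184 to -0.0322 in the same way. It was -0.398 in gene bodies, -0.29 in lists of equal length, -0.2 near gene boundaries, -0.0406 without assembly factors and -0.0362 at 5 kb. The counts called in both libraries were 2 in CKO, 8 in control and 1 in both genotypes with peaks inside the gene body only, against 7, 14 and 3 with the 2 kb window. In lists of equal length they were 3, 5 and 1. With 1 library left out they ranged from 9 to 28 in CKO, 21 to 26 in control and 4 to 9 in both genotypes. The construction of these settings (fewer positions, peaks or libraries required) changes the counts. A window of 5 kb gave 5 members in both genotypes, through regions such as that beside Atp5h, and a METTL3 difference of 0.5, from Atp5d. With all 8 lists cut to the shortest, an alternative added after seeing the data, the differences and counts were 0 throughout. Windows of 1 kb, peak centres, gene boundaries, the removal of assembly factors and the removal of the regions called in all 8 libraries left each count within 1.5 times its value, as did requiring the peaks to overlap (7, 12 and 3).

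With the replicate number as a block the METTL14 difference was -5 (exact permutation p = 1) and its share -0.108 (exact permutation p = 1). The METTL3 difference was 0, and the METTL14 minus METTL3 difference was 23.5 (exact permutation p = 0.5, the smallest the block allows). Deviations of same-numbered libraries correlated at 0.00 for METTL14 over 4536 genes and -0.02 for METTL3 over 325 genes. A correlation over genes does not register a shift common to all genes. It therefore cannot say whether same-numbered libraries shared a culture or batch, and the labels do not say so either. Unknown depth limits what an absent peak can show.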
